A study of Mus musculus with 6 samples.

Results

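DNA repair genes were followed in mouse gastrointestinal stromal tumours treated with imatinib or with vehicle. The list held 37 genes: 10 of homologous recombination, 7 of the Fanconi anaemia pathway, 3 of mismatch repair, 6 of base excision and single-strand break repair, 5 of nucleotide excision repair, 2 of end joining and 4 damage-signalling kinases. A gene was found by its name, or by its symbol in the array platform's annotation, ignoring case. Of the 37 genes, 35 were found in this way, Fancb was found only through its RefSeq accession, and Fanci had no row. A probe was kept when its detection p-value was under 0.05 on at least 3 of the 6 arrays, and 29 of the 36 genes with a row had such a probe. All genes passing that filter numbered 14714.

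Each array measured RNA from a gastrointestinal stromal tumour of mice labelled Kit V558Δ/+, C57Bl/6 and 6 weeks of age, and all 6 samples share these labels. This tumour type is thought to derive from the lineage of interstitial cells of Cajal, which pace contractions of the gut wall, and the labelled allele is a mutant copy of the receptor tyrosine kinase Kit. Treated mice received imatinib, an inhibitor of Kit and a few other tyrosine kinases, by intraperitoneal injection (3 arrays), and control mice received vehicle by the same route (3 arrays). The labels used here give no dose, no duration of treatment and no statement that the samples came from separate animals. The p-values therefore measure only the spread between these samples, which may be technical.

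Homologous recombination repairs broken DNA by copying an intact sister chromatid, and is used in S and G2 phase, when a sister is present. The Fanconi pathway recognises crosslinks between DNA strands and hands them on to recombination, and many genes of both pathways are transcribed mainly in proliferating cells. Base excision and nucleotide excision repair replace damaged bases or short stretches of one strand throughout the cell cycle, and mismatch repair corrects errors left by the replication machinery.

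No DNA repair gene on the list passed the test. With limma and Benjamini-Hochberg adjustment over all genes, 0 of the 29 genes tested had an adjusted p below 0.05, against 1.58% of all genes tested (232 of 14714, of which 77 were higher and 155 lower with imatinib). At an adjusted p below 0.1 there were 3 genes (Mre11a, Fancd2 and Ddb2), against 11.4% of all genes, and at an unadjusted p below 0.05 there were 7, against 26.4%. The 2 sets of arrays did not overlap in 11 genes: 6 were lower in every imatinib sample (Brca1, Rad54l, Mre11a, Nbn, Fancd2 and Lig3), against 14.5% of all genes, and 5 were higher (Msh3, Ercc1, Ercc2, Ddb2 and Xrcc6), against 17.4%. The values below are therefore descriptions of genes that missed the threshold. They are normalised log2 signals of the brightest kept probe of each gene, and each difference is imatinib minus vehicle. Only 3 arrays in each group limit their precision. In 17 of the 29 genes more than 1 probe was kept, and 21 of these 25 other probes had a difference of the same sign as the brightest; the exceptions lay in Msh6, Lig3, Ercc2 and Xrcc6.

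Some facts of the 6 arrays bear on every value. Between 20684 and 20923 probes were detected on the vehicle arrays, and between 21268 and 21439 on the imatinib arrays. Vehicle 1 lay at one end of the first principal component over all genes, at -60.54, and imatinib 3 at the other, at 47.32, with 60.8% of the variance on that component. The tumour label was checked on Kit, which read 14.39, 14.01 and 14.33 in the vehicle samples and 13.89, 14.47 and 13.48 in the imatinib samples, a difference of -0.30 ± 0.26 (SE; limma adjusted p = 0.485). Of the other markers of this tumour, Etv1, Prkcq and Cd34 were detected on all 6 arrays, and Ano1 had no row. The measured ones did not move alike. Etv1 differed by 0.09 ± 0.21 (SE; limma adjusted p = 0.806). Prkcq was lower in every imatinib sample, by -0.78 ± 0.23 (SE; limma adjusted p = 0.109). Cd34 was higher in every imatinib sample, by 0.33 ± 0.14 (SE; limma adjusted p = 0.195). Over all genes tested, 14.5% were lower in every imatinib sample and 1.58% passed the threshold in either direction. Proliferation genes moved with treatment: all 9 tested of 10 listed were lower in every imatinib sample, 4 of them past the threshold, with a median difference of -1.09. Among them, Ccnb1, which encodes a mitotic cyclin, fell by 1.45 on the log2 scale (SE 0.16, 2.72-fold, limma adjusted p = 0.0339), and Cdk1, its kinase partner, fell by 1.45 (SE 0.19, limma adjusted p = 0.0416). Mki67, the gene of the Ki-67 antigen, and Top2a, a topoisomerase of dividing cells, each fell by 1.09 (SE 0.16, 2.13-fold, limma adjusted p = 0.0418). In RNA from whole tumours, fewer cells of a type and less RNA per cell cannot be told apart.

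The promoters of 4 genes are shown first, because they come from genes that lay apart between the groups in opposite directions. Each window runs from 250 bases before to 50 bases after the transcription start, 5′ to 3′ on the gene's own strand, from RefSeq on GRCm38.p6. Capitals mark E2F-type cores (TTGGCGC or TTCCCGC or TTCGCGC or TTGCCGC on either strand), the kind of site bound by factors of S-phase transcription, and CCAAT boxes (CCAAT on either strand), a common promoter element. Mre11a (chr9:14784404-14784703, plus strand), Brca1 (chr11:101551906-101552205, minus strand) and Rad54l (chr4:116123641-116123940, minus strand) had lower signals with imatinib. Msh3 (chr13:92354954-92355253, minus strand) had higher signals, and its capitals hold a pair of overlapping E2F-type cores, TTGGCGC with GCGCGAA.
Mre11a: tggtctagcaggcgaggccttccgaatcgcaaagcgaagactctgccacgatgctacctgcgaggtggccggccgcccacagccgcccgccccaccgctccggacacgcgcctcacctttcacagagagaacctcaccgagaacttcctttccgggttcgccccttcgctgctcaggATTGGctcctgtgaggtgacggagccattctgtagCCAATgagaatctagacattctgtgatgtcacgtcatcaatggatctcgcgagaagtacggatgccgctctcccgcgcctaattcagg
Brca1: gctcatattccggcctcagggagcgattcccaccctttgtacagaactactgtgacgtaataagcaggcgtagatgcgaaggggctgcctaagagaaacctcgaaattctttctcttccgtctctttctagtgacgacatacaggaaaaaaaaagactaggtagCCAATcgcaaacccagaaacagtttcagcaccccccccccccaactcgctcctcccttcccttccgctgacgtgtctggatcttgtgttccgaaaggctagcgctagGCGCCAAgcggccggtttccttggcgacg
Rad54l: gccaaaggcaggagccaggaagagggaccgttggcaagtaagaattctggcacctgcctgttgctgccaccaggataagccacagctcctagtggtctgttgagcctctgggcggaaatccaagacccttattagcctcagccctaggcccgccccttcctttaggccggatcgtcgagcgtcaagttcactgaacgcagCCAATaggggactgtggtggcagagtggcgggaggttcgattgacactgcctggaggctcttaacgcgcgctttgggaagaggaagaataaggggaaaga
Msh3: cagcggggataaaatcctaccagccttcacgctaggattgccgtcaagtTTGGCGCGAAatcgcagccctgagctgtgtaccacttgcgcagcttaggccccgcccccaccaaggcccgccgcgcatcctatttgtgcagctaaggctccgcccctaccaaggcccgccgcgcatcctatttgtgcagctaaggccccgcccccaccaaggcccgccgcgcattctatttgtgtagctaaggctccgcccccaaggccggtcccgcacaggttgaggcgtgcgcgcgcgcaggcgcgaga
Of these windows, those of Brca1 and Msh3 held an E2F-type core, and those of Mre11a, Brca1 and Rad54l held a CCAAT box. The 4 genes were chosen by these same differences. They had a window, groups that did not overlap and the smallest limma p in their direction, and the row named Ercc2 was left out. Whether a core goes with the direction of a difference was not tested.

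Across the whole list, 31 genes had a promoter window, the first listed one being used, and 18 of them (58.1%) held an E2F-type core. The share was 16.2% among all tested genes with a window (1571 of 9698) and 9.69% among all 27025 genes with one. By class, 8 of 13 recombination and Fanconi genes held a core (61.5%), as did 6 of 12 base excision, nucleotide excision and mismatch repair genes (50.0%). The 13 include genes that were not tested: Bard1, Fancb, Fancg and Fanci, which held a core, and Fanca, which did not. All genes of the other class were tested. The shares of the 31 listed genes likewise include genes that were not tested. A CCAAT box was present in 19 of 31 listed genes (61.3%), against 38.5% of tested genes. The cell cycle homology region (TTTGAA or TTCGAA on either strand), an element of late cell cycle promoters, was present in 3 of 31 (9.68%), namely Apex1, Atr and Bard1, against 14.2% of tested genes. A match is only a run of letters in these windows, and no window was given for Rad50, Nbn, Exo1, Fancd2, Xpc or Ddb2.

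The recombination genes had lower mean signals with imatinib in 8 of the 8 tested, with differences from -0.89 to -0.07 and a median of -0.43, against a median of 0.04 and 45.7% lower means over all 14714 genes. None passed the threshold. In 4 of the 8 every imatinib sample lay below every vehicle sample (Brca1, Rad54l, Mre11a and Nbn), against 14.5% of all genes.

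Brca1 encodes the ubiquitin ligase that promotes the resection of broken ends. Its signal was 7.13, 6.56 and 6.56 in the vehicle samples and 6.35, 5.65 and 5.65 in the imatinib samples. The groups did not overlap, and vehicle 1 and imatinib 1 were the highest of their groups. The means were 6.75 ± 0.33 (SD, n = 3) and 5.89 ± 0.40 (SD, n = 3), a difference of -0.86 (95% interval -1.48 to -0.25, 1.82-fold), with a limma adjusted p of 0.108.

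Brca2, a mediator of recombination on resected DNA, read 6.63, 5.67 and 5.61 with vehicle and 6.02, 5.44 and 6.02 with imatinib. Its groups overlapped, and vehicle 1 alone lay above the imatinib samples. The difference was -0.14 (95% interval -0.91 to 0.62, limma adjusted p = 0.798), so the interval held both a sizeable fall and a sizeable rise. Bard1, the partner of Brca1 in the ubiquitin ligase, had no detected probe on any array and was not tested.

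Rad54l, a motor protein that helps homologous DNA pair, read 7.43, 6.78 and 6.68 with vehicle and 6.61, 6.34 and 6.55 with imatinib. The groups did not overlap, but the gap between the lowest vehicle and the highest imatinib sample was small beside the lead of vehicle 1. The difference was -0.46 ± 0.22 (SE; limma adjusted p = 0.232), and -0.23 without vehicle 1. Rad51ap1, which stimulates strand pairing, read 6.00, 4.96 and 5.29 with vehicle and 5.09, 4.75 and 4.58 with imatinib, a difference of -0.61 ± 0.28 (SE; limma adjusted p = 0.227). It was detected on 2 vehicle arrays and 1 imatinib array, so that its lower readings lay close to background.

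Blm, the helicase mutated in Bloom syndrome, which unwinds recombination intermediates, read 7.78, 7.28 and 7.52 with vehicle and 7.16, 6.91 and 7.32 with imatinib. Vehicle 2 lay below imatinib 3, so the groups overlapped. The difference was -0.40 ± 0.17 (SE; limma adjusted p = 0.209). Exo1, a nuclease of end resection and mismatch repair, had 3 probes and none was detected on any array.

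The 3 members of the Mre11 complex, which senses double-strand breaks and begins their resection, did not read alike at their brightest probes. Mre11a, the nuclease of the complex, read 9.76, 9.38 and 9.66 with vehicle and 8.94, 8.64 and 8.56 with imatinib. All imatinib samples lay well below all vehicle samples. The means were 9.60 ± 0.19 (SD, n = 3) and 8.71 ± 0.20 (SD, n = 3), and the difference was -0.89 (95% interval -1.27 to -0.51, 1.85-fold, limma adjusted p = 0.053). Its other kept probes gave -0.95 and -0.20, the latter with overlapping groups and close to the other kept probe of Rad50 (-0.22). Nbn, which carries the damage kinase Atm to the complex, read 7.17, 6.84 and 6.95 with vehicle and 6.79, 6.77 and 6.36 with imatinib, with a difference of -0.35 ± 0.17 (SE; limma adjusted p = 0.233), and -0.21 without imatinib 3. Its groups were separated by a narrow gap, and its other kept probe gave -0.51, with overlapping groups. Rad50, the ATPase that tethers the broken ends, read 9.49, 9.16 and 9.42 with vehicle and 9.32, 9.27 and 9.29 with imatinib, and its groups overlapped. Its difference was -0.07 (95% interval -0.36 to 0.23, limma adjusted p = 0.755).

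Without these 3 genes, the median of the other recombination and Fanconi genes was -0.43 over 8 tested.

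**Figure D1:**
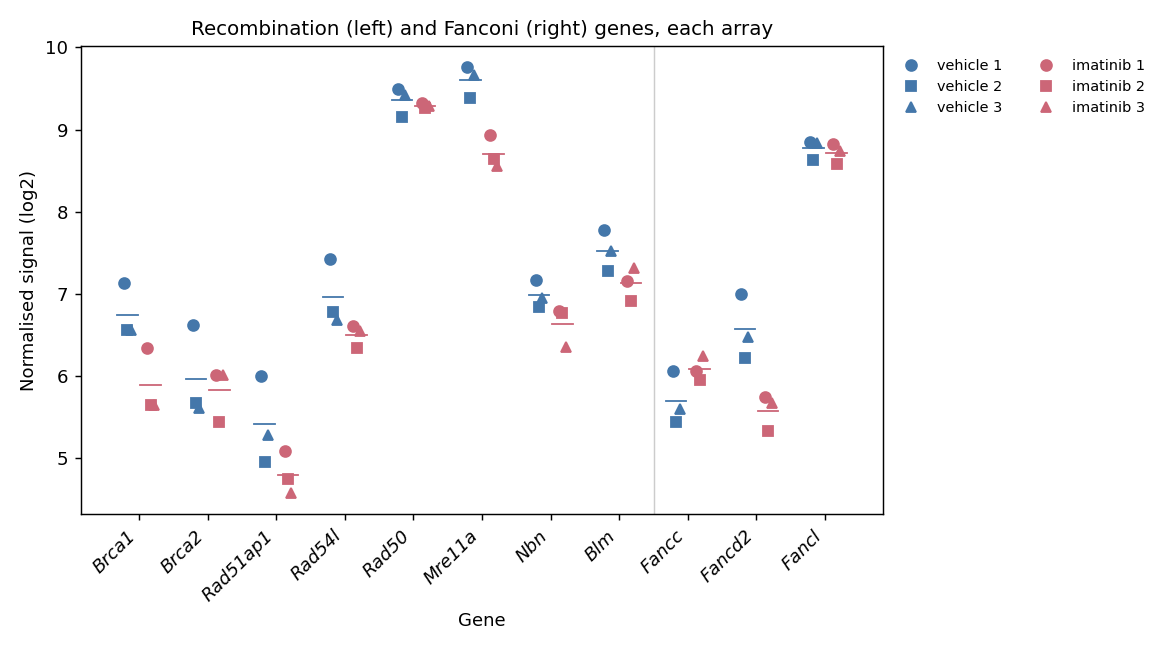
Normalised log2 signal (vertical axis) of each tested recombination and Fanconi gene, 1 point for each array; colours give the treatment, marker shapes the sample number and short lines the mean of 3 arrays. The points of Mre11a and Fancd2 are separated by group, whereas those of Rad50 and Fancl are intermixed.

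Only 3 of the 7 Fanconi genes could be tested. Fancd2, which is ubiquitinated at crosslinks and marks them for repair, read 7.00, 6.22 and 6.48 with vehicle and 5.75, 5.33 and 5.67 with imatinib. The groups did not overlap. The means were 6.57 ± 0.39 (SD, n = 3) and 5.58 ± 0.22 (SD, n = 3), a difference of -0.99 (95% interval -1.53 to -0.44, 1.98-fold, limma adjusted p = 0.0728), and its other kept probe gave -0.83.

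Fancl, the ubiquitin ligase that modifies Fancd2, read 8.85, 8.63 and 8.84 with vehicle and 8.83, 8.58 and 8.74 with imatinib, with overlapping groups and a difference of -0.06 (95% interval -0.36 to 0.24). Its other kept probe gave -0.34, with groups that did not overlap. Fancc, a subunit of the core complex that holds this ligase, read 6.06, 5.44 and 5.60 with vehicle and 6.06, 5.96 and 6.25 with imatinib. Its imatinib mean was the higher one, by 0.39 ± 0.19 (SE; limma adjusted p = 0.235), but vehicle 1 matched imatinib 1. The core complex subunits Fanca, Fancb and Fancg were not tested: no Fancb or Fancg probe was detected on any array, and the brighter Fanca probe was detected on 2. Thus Fancd2 and Fancc differed in direction, with neither past the threshold.

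The mismatch repair genes gave 1 lower and 2 higher means, with a median of 0.07. Msh3, which recognises small insertion and deletion loops, read 7.78, 7.51 and 7.67 with vehicle and 7.88, 7.99 and 8.24 with imatinib. Every imatinib sample lay above every vehicle sample. The difference was 0.38 (95% interval 0.04 to 0.72, 1.30-fold, limma adjusted p = 0.156). Msh6, which recognises single mismatched bases, read 10.21, 9.98 and 10.10 with vehicle and 10.26, 10.07 and 10.17 with imatinib, a difference of 0.07 (95% interval -0.21 to 0.35). Pms2, the nuclease that nicks the strand to be corrected, read 7.81, 7.45 and 7.54 with vehicle and 7.58, 7.46 and 7.66 with imatinib, a difference of -0.03 (95% interval -0.36 to 0.29). Both genes overlapped between groups, and 1 of the other kept probes of Msh6 gave -0.14.

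Among the base excision and single-strand break repair genes, 5 of 6 had lower means with imatinib, with a median of -0.17 and none past the threshold. Ogg1, the glycosylase that removes oxidised guanine, read 6.13, 5.75 and 5.97 with vehicle and 5.79, 5.42 and 5.47 with imatinib. Imatinib 1 lay just above vehicle 2, so the groups overlapped, and the difference was -0.39 (95% interval -0.78 to -0.01, 1.31-fold, limma adjusted p = 0.185). Apex1, the endonuclease that cuts at the resulting abasic site, read 9.21, 8.99 and 9.22 with vehicle and 8.55, 9.10 and 8.55 with imatinib. Imatinib 2 lay within the vehicle range and the other imatinib samples below it, for a difference of -0.40 ± 0.18 (SE; limma adjusted p = 0.22).

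Lig3, the ligase that closes the nick together with the scaffold Xrcc1, read 7.86, 7.67 and 7.72 with vehicle and 7.58, 7.57 and 7.58 with imatinib. All imatinib samples lay below the vehicle samples by a small margin, and the difference was -0.18 ± 0.10 (SE; limma adjusted p = 0.314), but the other kept probes of the gene gave -0.45 and 0.17. Xrcc1 itself had a difference of 0.03 (95% interval -0.28 to 0.34). Ung, which removes uracil from DNA, had a difference of -0.05 (95% interval -0.45 to 0.36), and Parp1, which detects strand breaks, one of -0.17 (95% interval -0.57 to 0.24). The groups of all 3 genes overlapped at these probes. The other kept probes of Parp1 gave -0.24, with overlapping groups, and -0.66, without overlap. The probe of -0.66 was detected on only 3 arrays.

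The nucleotide excision genes gave 4 higher and 1 lower mean with imatinib and a median of 0.16, again with none past the threshold. Ddb2, the damage-recognition subunit for ultraviolet photoproducts and, in human cells, a transcriptional target of p53, read 7.71, 7.56 and 7.71 with vehicle and 8.29, 8.13 and 8.63 with imatinib. Every imatinib sample lay above every vehicle sample. The means were 7.66 ± 0.09 (SD, n = 3) and 8.35 ± 0.26 (SD, n = 3), and the difference was 0.69 (95% interval 0.31 to 1.06, 1.61-fold, limma adjusted p = 0.0712). All 5 kept probes of Ddb2 had higher means with imatinib. The others gave 0.71, 0.43, 0.30 and 0.28, and the groups overlapped at those of 0.43 and 0.28.

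Ercc1, part of the nuclease that cuts on the 5′ side of the lesion, read 7.11, 7.11 and 7.12 with vehicle and 7.16, 7.32 and 7.32 with imatinib, a difference of 0.16 ± 0.10 (SE; limma adjusted p = 0.364). The row named Ercc2 read 6.19, 6.09 and 6.10 with vehicle and 6.45, 6.45 and 6.43 with imatinib, with a difference of 0.31 (95% interval 0.08 to 0.55, 1.24-fold, limma adjusted p = 0.117). In neither row did the groups overlap. The platform annotation gives the row named Ercc2 the symbol Klc3, a neighbouring gene, so which transcript it reports is uncertain, and its other kept probe gave -0.05. Ercc2 encodes a helicase of the complex that opens DNA around a lesion. Xpc, the general damage sensor, and Xpa, which verifies damage, had differences of -0.10 (95% interval -0.48 to 0.27) and 0.13 (95% interval -0.37 to 0.62), with overlapping groups.

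**Figure D2:**
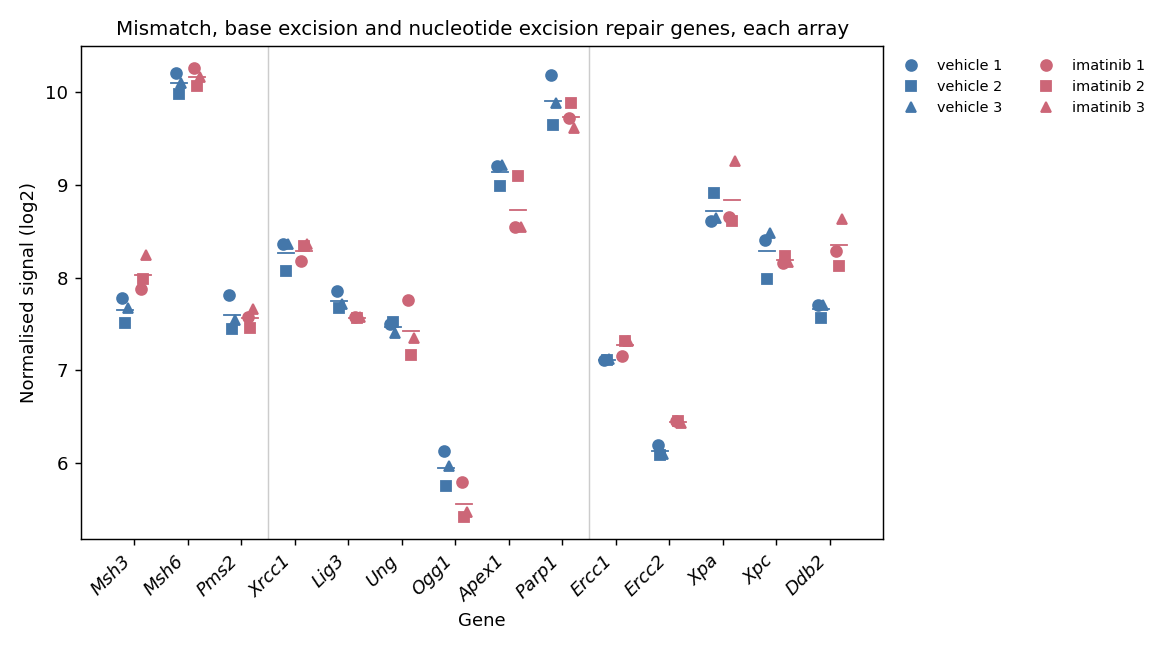
Normalised log2 signal (vertical axis) of each mismatch, base excision and nucleotide excision repair gene, 1 point for each array; colours give the treatment, marker shapes the sample number and short lines the mean of 3 arrays. Ddb2 and Msh3 lie higher in every imatinib sample, Lig3 lies lower, and most other genes overlap.

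Xrcc6 encodes Ku70, a subunit of the ring that holds broken ends for end joining, and read 10.55, 10.41 and 10.46 with vehicle and 10.68, 10.60 and 10.62 with imatinib. The groups did not overlap. Its difference was 0.16 ± 0.10 (SE; limma adjusted p = 0.341), but another kept probe gave -0.09. Xrcc5, which encodes the partner subunit, had no detected probe. The kinases that signal damage all had lower means, with differences of -0.23 for Chek2 (95% interval -0.54 to 0.09), -0.10 for Atr (95% interval -0.45 to 0.26) and -0.08 for Atm (95% interval -0.40 to 0.24). All 3 overlapped between groups at these probes, and none passed the threshold. The other kept probes of Chek2 gave -0.54, with groups that did not overlap, and -0.22, and that of Atm gave -0.20, also without overlap. Chek1, the checkpoint kinase activated by Atr, was not tested. The brighter of its probes was detected on 2 arrays, and read 5.78, 5.10 and 5.64 with vehicle and 4.65, 4.84 and 4.60 with imatinib.

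**Figure D3:**
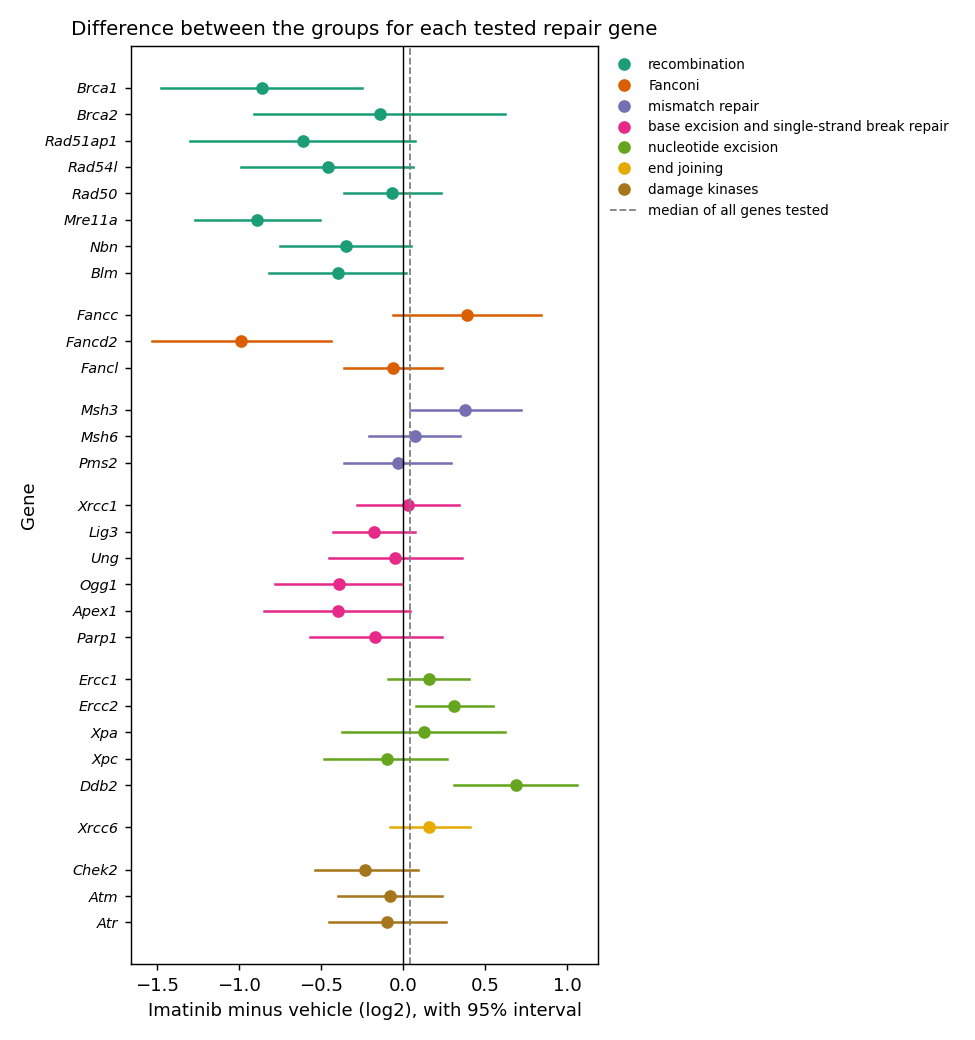
Difference in normalised log2 signal, imatinib minus vehicle (horizontal axis), for each of the 29 tested genes by class; points are limma estimates and bars their 95% intervals. Intervals lie wholly below 0 for Brca1, Mre11a, Fancd2 and Ogg1 and wholly above 0 for Msh3, Ercc2 and Ddb2.

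The recombination and Fanconi genes were next set beside the base excision, nucleotide excision and mismatch repair genes. Of the 11 tested recombination and Fanconi genes, 10 had lower means, with a median difference of -0.40, and 5 lay wholly below the vehicle samples, against 14.5% of all genes. Of the 14 excision and mismatch repair genes, 7 had lower and 7 higher means, with a median of 0.00; 1 lay wholly below and 4 wholly above, against 14.5% and 17.4% of all genes. The detection filter bears on the first group, since 5 of its 16 genes with a row were left out. With all 16 counted at their brightest probe, 11 had lower means and the median was -0.18, whereas the excision and mismatch genes all passed.

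The mean level of the recombination and Fanconi genes, each gene first centred on its mean over the arrays, was 0.54, -0.04 and 0.11 in the vehicle samples and -0.04, -0.34 and -0.22 in the imatinib samples. Vehicle 1 stood above all others, and vehicle 2 at -0.0417 was level with imatinib 1 at -0.0443. For the excision and mismatch genes the levels were 0.08, -0.12 and 0.00 against 0.00, -0.02 and 0.06, which overlapped. The first level minus the second was 0.46, 0.08 and 0.11 with vehicle and -0.05, -0.33 and -0.28 with imatinib, and did not overlap. The recombination and Fanconi level holds only genes that passed the detection filter, and was not computed over all those with a row. The proliferation genes, measured the same way, read 0.87, 0.34 and 0.43 against -0.47, -0.63 and -0.54, so they too were highest in vehicle 1. Their part in the lower recombination signals was not tested. Without vehicle 1 the median difference of the recombination and Fanconi genes was -0.24.

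**Figure D4:**
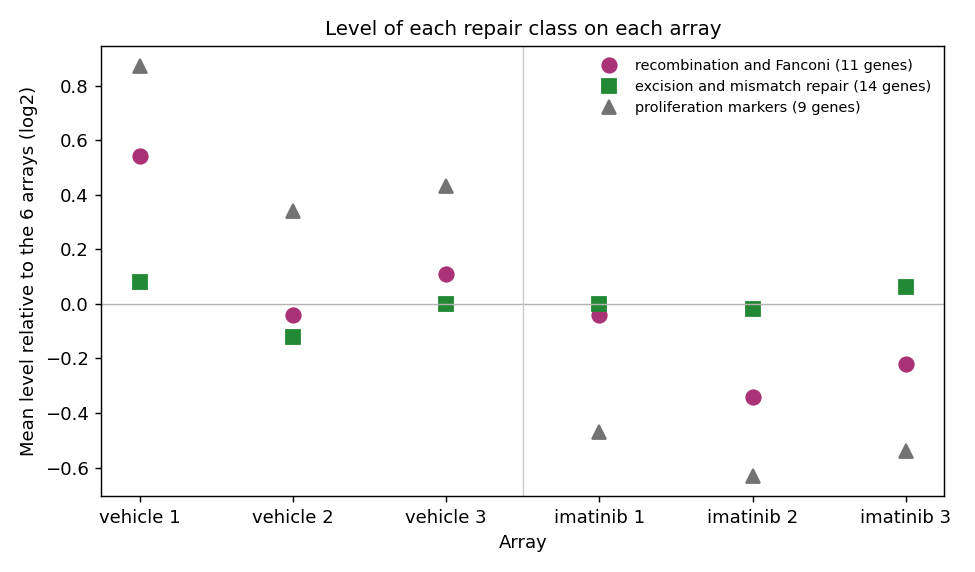
Mean level of the recombination and Fanconi genes, of the excision and mismatch repair genes, and of the proliferation markers on each of the 6 arrays (log2 signal centred for each gene). Vehicle 1 is the highest array for each of these sets, by a small margin for the excision and mismatch genes, which stay between -0.12 and 0.08.

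Other genes of these pathways, taken from lists of each pathway, gave no calls either. Over 90 listed genes of recombination, the Fanconi pathway, mismatch and excision repair, end joining, damage signalling and direct reversal, 76 were tested and 0 passed the limma threshold, with 18 at an unadjusted p below 0.05 (26.4% of all genes were), 40 lower and 36 higher means, and a median of -0.03. In 15 of the 76 the imatinib samples lay wholly below the vehicle samples, against 14.5% of all genes, and in 6 wholly above, against 17.4%. The other 17 tested recombination genes split into 8 lower and 9 higher means with a median of 0.03, whereas the 8 described above all had lower means. Of the 17, 2 lay wholly below the vehicle samples and 2 wholly above, against 14.5% and 17.4% of all genes. Among them, Brip1, the helicase partner of Brca1, differed by -1.00 ± 0.21 (SE; limma adjusted p = 0.0624).

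The other Fanconi genes gave 2 lower and 6 higher means over 8 tested. Ube2t, which supplies ubiquitin for Fancd2, differed by -1.11 ± 0.23 (SE; limma adjusted p = 0.0619), whereas Fan1, a nuclease recruited to crosslinks, differed by 0.78 ± 0.21 (SE; limma adjusted p = 0.0902). Of 4 other mismatch repair genes, 3 had higher means, and Mlh3, a subunit of a mismatch repair endonuclease, differed by 0.25 ± 0.21 (SE; limma adjusted p = 0.476).

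Of 14 other base excision genes, 9 had lower and 5 higher means, with a median of -0.16. In 6 of the 14 the imatinib samples lay wholly below the vehicle samples, against 14.5% of all genes. In 0 they lay wholly above, against 17.4%. Neil3, a glycosylase of proliferating cells, differed by -0.90 ± 0.18 (SE; limma adjusted p = 0.0572) and was detected on 3 vehicle arrays and 1 imatinib array. Parp3, a relative of Parp1, differed by -0.84 ± 0.20 (SE; limma adjusted p = 0.0763). Of 9 other nucleotide excision genes, 3 had lower and 6 higher means, with a median of 0.14. Cetn2, a subunit of the Xpc sensor, differed by -0.63 ± 0.21 (SE; limma adjusted p = 0.132).

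The 7 other end joining genes gave 4 lower and 3 higher means and a median of -0.01. Xrcc4, the partner of the end joining ligase, differed by -0.39 ± 0.14 (SE; limma adjusted p = 0.151), and Prkdc, the kinase recruited by Ku, by -0.52 ± 0.21 (SE; limma adjusted p = 0.174). Prkdc was detected on 3 vehicle arrays and 1 imatinib array, so that most of its imatinib readings lay near background. Of 14 other damage-signalling genes, 10 had lower and 4 higher means, with a median of -0.20. Clspn, the adaptor that lets Atr activate Chek1, differed by -1.01 ± 0.20 (SE; limma adjusted p = 0.0596), and Rnf8, a ubiquitin ligase that marks chromatin around breaks, by 0.46 ± 0.13 (SE; limma adjusted p = 0.103). The 3 direct reversal genes, which undo base damage without cutting DNA, all had lower means, among them Alkbh3 with -0.14 ± 0.11 (SE; limma adjusted p = 0.456) and Alkbh2 with -0.08 ± 0.18 (SE; limma adjusted p = 0.811).

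Markers of several other cell types that a gut tumour can hold also differed in level between the groups. The mean level of B cell markers, each gene centred on its mean over the arrays, ran from -0.87 to -0.37 with vehicle and from 0.30 to 0.92 with imatinib, with 1 of 4 higher past the threshold. Endothelial markers ran from -0.60 to -0.36 and from 0.39 to 0.67, with 1 of 4 higher past the threshold, and neuron and glia markers from -0.79 to -0.35 and from 0.45 to 0.75, with 1 of 2 higher past it. T cell markers lay the other way, from 0.39 to 0.50 with vehicle and from -0.86 to -0.13 with imatinib, with 0 of 4 past the limma threshold. Over all genes tested, 1.58% passed it in either direction. Smooth muscle markers, from -1.16 to 0.37 and from 0.04 to 0.73, overlapped between groups, as did gut epithelium markers, from -1.75 to 0.78 and from 0.23 to 0.61, and macrophage markers, from -0.02 to 0.18 and from -0.29 to 0.06. Vehicle 1 had the lowest level of the smooth muscle and of the gut epithelium markers, -1.16 and -1.75, and the highest level of the recombination and Fanconi genes, 0.54. The defining markers Cnn1 (smooth muscle), Ms4a1 (B cell), Cd4 (T cell), Kdr (endothelium) and Gfap (glia) had no kept probe. Germinal centre B cells also use recombination and mismatch repair genes. The 2 tested of 5 markers of these B cells ran from -0.47 to -0.45 with vehicle and from -0.10 to 0.99 with imatinib. Bcl6 differed by 1.78 between the groups and S1pr2 by 0.06, so the level rests on Bcl6. The part of these cells in the repair gene values was not tested.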

How the data were processed

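Illumina bead arrays measured RNA from 6 tumour samples, 3 for each treatment, as the labels group them. The authors deposited a probe table of bead intensity values with a detection p-value for each probe, per the file headers. They also deposited a gene-level log2 table and a processed log2 table; the submitters' processing notes name Partek. Scanner settings are not given in the sources used here. All 31492 gene-level rows were each tied to their probes by value: the log2 of the mean of neighbouring probes equalled the row on all 6 arrays. The 4 rows with a repeated identifier were left out. Symbols from the platform annotation (21546 rows with 1 symbol, 0 with several) were updated through RefSeq GRCm38.p6.

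Probe intensities were corrected with normexp (offset 16, background from the detection p-values), quantile normalised and log2 transformed with limma 3.58.1 in R 4.3.3. The brightest of 21395 kept probes stood for each of 14714 genes. Groups were compared by moderated linear models (lmFit, eBayes) with no block, p-values were adjusted by Benjamini-Hochberg over the 14714 genes, and the procedure was tested on simulated data. Genes outside the list were named by rule: in each pathway list and among proliferation markers, up to 4 called genes, or up to 2 with the smallest p where fewer than 2 were called, plus Kit; some genes that this rule names are not reported here. An exact permutation test of 3 arrays against 3 cannot give a p below 0.1. The genes and lists were chosen with earlier results of these data known. Alternatives covered background, normalisation, filter, probe choice, weights, block and left-out arrays.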

Additional observations from a re-analysis of the deposited data

How the results depend on the processing

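The lack of calls among the DNA repair genes depended in part on the processing. Mre11a alone passed, so that 1 gene was called, with no background correction, with a normexp offset of 50, with the gene-level table, with the authors' processed values and with an intensity trend; 12 genes passed with array weights, whose estimation did not converge, and 3 at an adjusted p under 0.1. Leaving out 1 array gave 0 to 2 genes called, the 2 being Mre11a (-1.00) and Fancd2 (-1.16) without vehicle 2. Over all genes, 232 calls became 0 with no detection filter, 409 with the mean of the kept probes, 366 with the gene-level table, 429 with an intensity trend, 7587 with array weights and 1673 at an adjusted p under 0.1; leaving out 1 array gave 0 to 1360. Excluding both vehicle 1 and imatinib 3, chosen after seeing the data, gave 0. With the replicate block 0 genes were called. The labels state no pairing. Deviations of same-numbered samples correlated at -0.112, -0.308 and 0.019, and those of the other pairs at -0.199 to 0.248. So few values cannot show whether the numbers pair the samples. The cause of the shifts in calls was not tested.

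The median of the recombination and Fanconi genes was -0.11 with the gene-level table and with the processed values, which hold every row with no filter, -0.52 to -0.24 with 1 array left out, and -0.18 excluding both vehicle 1 and imatinib 3. The median of the excision and mismatch genes was -0.04 with the gene-level table and with the processed values. In those settings the medians of the classes, -0.11 and -0.04, lay much closer than the -0.40 and 0.00 of the main fit. The excision and mismatch median was -0.05 to 0.07 with 1 array left out and -0.03 without the row named Ercc2. Of 517 values of single genes, 472 kept their direction and side of the threshold, 19 newly passed it and 26 changed sign. Of the 19, 12 came from the array weights fit. With median scaling, Msh6 was -0.0032 and Xrcc1 -0.01; Xrcc1 was also -0.04 with the gene-level table and -0.03 with the processed values. With array weights, Brca2 was 0.30, Pms2 0.04, Xrcc1 -0.12 and Ung 0.18. Excluding both vehicle 1 and imatinib 3, Brca2 was 0.09, Rad50 0.01, Pms2 0.03, Ung 0.0039, Parp1 0.04, Xpa -0.14 and Atr 0.01. With 1 array left out, Brca2 ran from -0.32 to 0.19, Rad50 from -0.16 to 0.0022, Fancl from -0.13 to 0.01, Pms2 from -0.11 to 0.07, Xrcc1 from -0.07 to 0.08, Ung from -0.21 to 0.08, Xpa from -0.08 to 0.25 and Atm from -0.17 to 0.0033. Over 18 alternatives, the adjusted p of Mre11a ran from 0.00197 to 0.301, of Fancd2 from 0.00327 to 0.294, and of Ddb2 from 0.00315 to 0.31. The lowest value of each came from the array weights fit, whose estimation did not converge. Leaving that fit aside, the lowest limma adjusted p was 0.0378 for Mre11a and 0.0408 for Fancd2, both without vehicle 2. For Ddb2 it was 0.0639, without imatinib 2, so Ddb2 passed 0.05 only with array weights. Signal over background limits Rad51ap1, detected on 3 arrays, and Chek1 and Fanca, detected on 2.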

Other observations

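Genes of the response to p53, the transcription factor activated by DNA damage, were also measured. The 12 tested were Trp53, the gene of p53 itself, and genes known as its targets. The median difference was -0.11, with 8 lower and 4 higher means. Of the 12, 1 passed the threshold, against 1.58% of all genes. In 2 the imatinib samples lay wholly below the vehicle samples, against 14.5% of all genes, and in 2 wholly above, against 17.4%. Plk2, a kinase induced by p53 and by other stimuli, read 6.53, 6.34 and 6.00 with vehicle and 7.27, 7.25 and 7.26 with imatinib. Every imatinib sample lay above every vehicle sample, and Plk2 rose by 0.97 on the log2 scale (SE 0.15, 1.96-fold, limma adjusted p = 0.0472). Gadd45a, a stress-induced p53 target, lay the other way, with a difference of -0.77 ± 0.27 (SE; limma adjusted p = 0.141).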
